A study of Homo sapiens with 6 samples.

Results

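The MYC, MAX and MXD network is taken here as 10 genes, chosen by name: the paralogs MYC, MYCL and MYCN, the shared partners MAX and MLX, and the antagonists MXD1, MXI1, MXD3, MXD4 and MNT. All 10 were found by symbol among the 62696 genes of the count files. Expression was compared between control and OC2-OE cells, and 9 of the 10 genes had enough counts to be tested among 17307 genes. MYCN was the member that did not pass the filter on low counts.

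The MYC paralogs are transcription factors of the basic helix-loop-helix leucine zipper class that bind DNA only as dimers with MAX, and they drive genes of growth, ribosome production and metabolism. The MXD proteins, with MXI1 and MNT, compete for MAX, bind the same E-box letters and recruit the SIN3 and histone deacetylase corepressors. MLX is a MAX-like protein that pairs with some of the antagonists and with the nutrient sensors MondoA and ChREBP. In SCLC, MYCL is linked to NE tumors and MYC to tumors with fewer NE features. The study asked whether OC2 changes the state of SCLC cells. Among other genes, it measured c-MYC and l-MYC mRNA in NCI-H510 cells, another SCLC line, and c-MYC protein in NCI-H510 and DMS53 cells.

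The cells were DMS53, an established SCLC cell line grown in RPMI-1640 with serum, and all were transduced with a lentivirus and selected with puromycin. Control cells (3 libraries) carried the empty vector, which encodes mGFP, and OC2-OE cells (3 libraries) carried an mGFP-tagged ONECUT2 under constitutive expression. The paper describes the libraries of each condition as independent experiments, while the labels do not say whether each came from its own transduction. The p-values therefore measure only the spread between these libraries. That spread was small, with a biological coefficient of variation of 2.2% in edgeR's fit, so small fold changes could reach very low p-values. Each library held between 16533284 and 19099337 counts of read pairs. ONECUT2, the gene for OC2, rose from 24.6 ± 0.332 CPM in control cells to 3944 ± 70.3 CPM under OC2-OE (SD, n = 3 each), which checks the labels, and reads of the vector and of the endogenous gene share this count. Of 5 NE markers, SYP, INSM1, NCAM1 and NEUROD1 were lower and CHGA was higher in OC2-OE cells. None of the 5 was at 0 in any group, and their summed level was 1186 to 1189 CPM in control and 573 to 590.1 CPM in OC2-OE libraries. Markers of other cell types summed to 20.8 to 23.7 CPM (control) and 27.4 to 30.8 CPM (OC2-OE) for 4 fibroblast genes. For 3 leukocyte genes, of which 1 had no count, the sum was 3.10 to 3.94 CPM in control and 5.31 to 6.37 CPM in OC2-OE libraries, and for 3 endothelial genes 2.99 to 3.96 and 2.36 to 3.35 CPM. Of 2 fibroblast genes with enough counts to be tested 1 was called higher, and the 1 such leukocyte gene was called higher. Of 2 such endothelial genes 1 was called lower. Over all tested genes 56.5% were called, 27.8% as higher and 28.7% as lower. The part of these cell type markers in the results was not tested. CPM are counts scaled to a common library total after TMM normalization, a scaling that assumes that most genes do not change between libraries. They express each gene relative to the rest of its library, so fewer cells of a kind and less RNA per cell cannot be told apart.

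Of the 9 tested network genes, 6 passed an adjusted p of 0.001 in edgeR's quasi-likelihood test, 3 of them higher and 3 lower in OC2-OE cells. MYCL, MXD4 and MNT rose, and MLX, MXI1 and MXD3 fell. MYC, MAX and MXD1 did not pass. The same test called 56.5% of all tested genes, 27.8% as higher and 28.7% as lower, so the share of network genes called (66.7%) lay near that of any gene. In 6 of the 9 tested genes the groups did not overlap, against 73.2% of all tested genes (36.5% with OC2-OE above and 36.7% below). The changes were small. None of the network genes reached an absolute log2 fold change of 1 together with the adjusted p, which 17.3% of all tested genes did, and their median absolute log2 fold change was 0.22 against 0.38 over all tested genes. Their log2 fold changes ran from -0.65 for MXD3 to 0.47 for MNT.

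**Figure D1:**
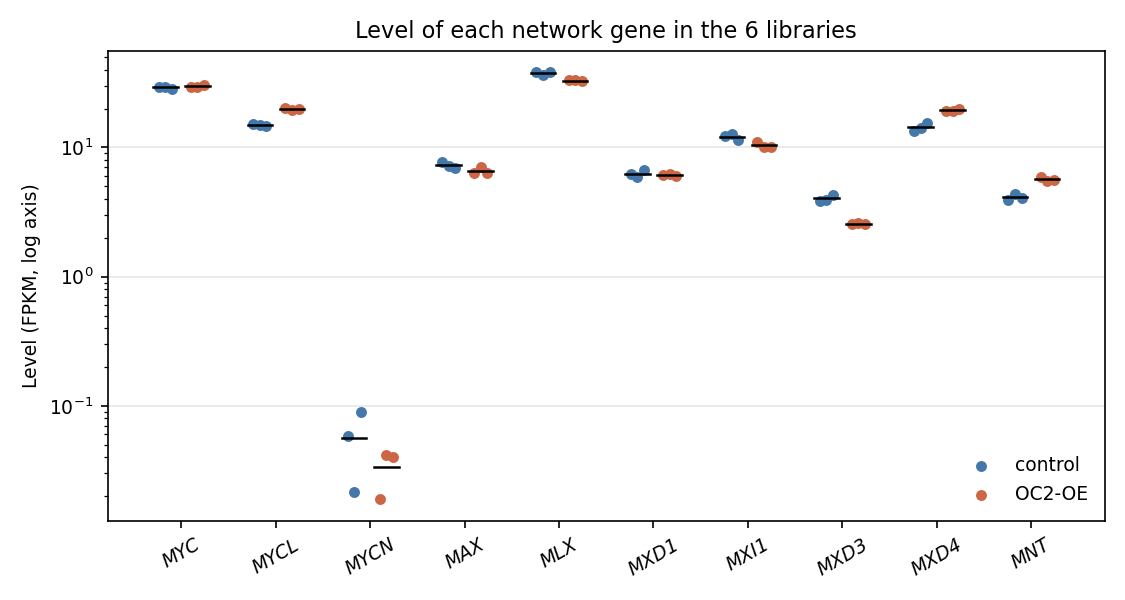
Level of each network gene in FPKM (log axis) in the 3 control (blue) and 3 OC2-OE (orange) libraries, with points for libraries and bars for group means. MYC lies at 29.1 and 29.7 FPKM in the 2 groups, while MYCL, MXD4 and MNT lie higher and MXD3 lower in OC2-OE libraries.

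MYC (ENSG00000136997.21), which encodes c-MYC, spans bases 127735434 to 127742951 of chromosome 8 (GRCh38). Its level was 135, 136 and 129 CPM in control replicates 1 to 3 and 134, 134 and 139.8 CPM in OC2-OE replicates 1 to 3. The 2 groups overlapped, with the lowest value in control replicate 3 and the highest in OC2-OE replicate 3. The log2 fold change was 0.03 with a standard error of 0.032 (adjusted p = 0.471, edgeR), and its 95% interval ran from -0.04 to 0.09. The counts behind it were 6900 in control and 7436 in OC2-OE libraries. With scaling by library size only, the value was 0.08 (adjusted p = 0.0270, edgeR), the largest among 15 other settings, and it remained short of the threshold of 0.001. With 1 library left out the value ran from 0.0019 without control replicate 3 to 0.043 without OC2-OE replicate 1.

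MYCL (ENSG00000116990.11), which encodes l-MYC, lies on chromosome 1 from 39895426 to 39902256. Its level was 76.5, 75.8 and 73.9 CPM in control and 102, 98.5 and 101 CPM in OC2-OE libraries. Every OC2-OE library lay above every control library. The rise was 1.33-fold, a log2 fold change of 0.41 with a standard error of 0.038 (adjusted p = 9.92e-19, edgeR). Over 15 other settings of scaling, test, filter and libraries the value stayed between 0.40 and 0.47. The antisense gene MYCL-AS1, which shares 4.46% of the exonic bases of MYCL on the other strand, had 7 counts in control and 10 in OC2-OE libraries.

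MYCN, the paralog best known from neuroblastoma, is on chromosome 2 from 15940550 to 15947007. It had 3, 1 and 4 counts in control and 1, 2 and 2 in OC2-OE libraries. These counts were too few for a test in either group, and a difference was not detectable at this depth. Among the paralogs, then, MYC transcripts were the most abundant per length in both groups, MYCL followed, and MYCN was near the limit of detection.

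MAX, the obligate partner of the MYC proteins, is on chromosome 14 from 65006174 to 65102695. Its level was 48.5, 44.6 and 43.7 CPM in control and 39.6, 43.9 and 39.96 CPM in OC2-OE libraries. OC2-OE replicate 2 lay above control replicate 3, so the groups overlapped. The log2 fold change, -0.15 with a standard error of 0.053 and a 95% interval from -0.25 to -0.05, did not pass the threshold (adjusted p = 0.00722, edgeR), and adjusted p-values ran from 0.00220 to 0.0952 over the other settings. Exons of FNTB, CHURC1-FNTB and an unnamed gene cover 16.1% of the bases of MAX on the opposite strand, which the counting separated by strand.

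MLX, on chromosome 17 from 42567072 to 42573239, was the most abundant network gene per length in every library. Its level was 163, 154 and 163 CPM in control and 140.4, 140.3 and 139 CPM in OC2-OE libraries. The groups did not overlap, and the OC2-OE libraries lay close together. The log2 fold change was -0.19 (standard error 0.031, adjusted p = 1.99e-08, edgeR), a 1.14-fold lower level. Exons of PSMC3IP on the opposite strand cover 18.2% of its bases.

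**Figure D2:**
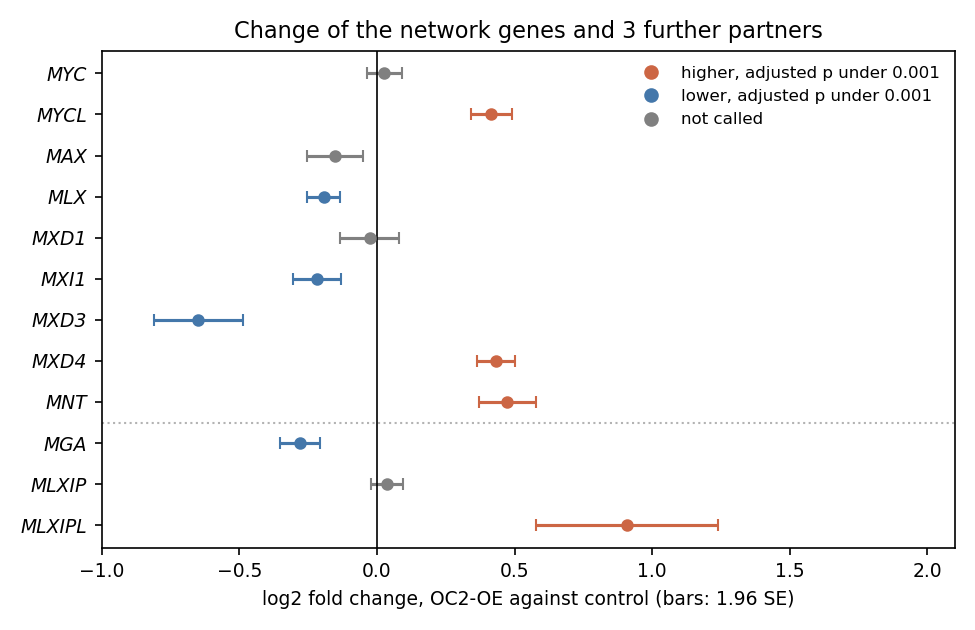
log2 fold change of OC2-OE against control for the 9 tested network genes (above the dotted line) and for MGA, MLXIP and MLXIPL, with bars for the 95% interval. Orange and blue points passed an adjusted p of 0.001 as higher or lower, and the grey points MYC, MAX, MXD1 and MLXIP did not.

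The antagonists divided in direction, with MXD4 and MNT higher, MXD3 and MXI1 lower and MXD1 without a call. MXD4, on chromosome 4 from 2247432 to 2262109, encodes the family member tied to differentiated and resting cells. It had 92.4, 97.8 and 107 CPM in control and 132, 132 and 136 CPM in OC2-OE libraries. All OC2-OE libraries were above all control libraries. The rise was 1.35-fold (log2 fold change 0.43, standard error 0.036, adjusted p = 4.18e-20, edgeR). MNT, on chromosome 17 from 2384073 to 2401104, encodes a broadly expressed antagonist that is the largest protein of this group. It had 33.9, 37.9 and 35.1 CPM in control and 51.7, 47.7 and 48.8 CPM in OC2-OE libraries, with no overlap. Its rise was 1.39-fold (log2 fold change 0.47, standard error 0.053, adjusted p = 2.92e-14, edgeR), the largest rise in the network with all libraries. Without control replicate 3, and likewise without OC2-OE replicate 1, the log2 fold change of MXD4 exceeded that of MNT (0.486 against 0.461 and 0.446 against 0.444).

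MXD3, on chromosome 5 from 177301461 to 177312757, differs from its relatives in being expressed during S phase of cycling cells. It had 18.4, 18.5 and 20.5 CPM in control and 12.2, 12.2 and 12.1 CPM in OC2-OE libraries. No OC2-OE library reached the lowest control library. The log2 fold change was -0.65 (standard error 0.083, adjusted p = 9.22e-12, edgeR), a 1.57-fold lower level and the largest fall among the members. Of the exonic bases of MXD3, 19.5% are shared with RAB24 on the same strand, and read pairs on shared bases alone were not counted, so its level is an underestimate in both groups. A list of 15 proliferation genes, given below, fell in the same libraries, and its part in the result for MXD3 was not tested.

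MXI1, on chromosome 10 from 110207605 to 110287365, fell by 0.22 on the log2 scale (standard error 0.044, adjusted p = 6.62e-06, edgeR). Its level was 72.3, 74.6 and 67.0 CPM in control and 65.4, 59.4 and 59.1 CPM in OC2-OE libraries. OC2-OE replicate 1 came close to control replicate 3 but did not reach it. Among the called members, MXI1 had the least margin, with an adjusted p of up to 0.000903 over the other settings. MXD1, on chromosome 2 from 69897688 to 69942945, which is induced when many cell types differentiate, had 39.3, 37.2 and 42.6 CPM in control and 38.7, 39.8 and 38.4 CPM in OC2-OE libraries. Its OC2-OE values lay inside the range of the control values. The log2 fold change was -0.03 (standard error 0.054, 95% interval -0.13 to 0.08, adjusted p = 0.670, edgeR), and its sign turned under 3 of 15 other settings. The median log2 fold change of the 9 tested members is the value of MXD1, -0.03 against 0.01 over all tested genes, and turned sign with it.

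Since MXD4 and MNT rose together, the bases before their start sites were searched for the E-box letters CACGTG, which MYC and MXD dimers bind, for the E-box variant CGCGTG, and for ATCGAT and ATTGAT, letters found in ONECUT sites. The 250 bases before each start were read from RefSeq (GRCh38.p14) for 9 members, all but MYC, with more than 1 start for MAX and MXI1. CACGTG and ATCGAT read the same on both strands, CGCGTG and ATTGAT were searched on both, and these motifs share no bases here. CACGTG was found for 3 of the 9 members, MXD4, MNT and MLX, against 6.34% of 35116 promoters of the same length. Members are counted here by gene, with several windows for MAX and MXI1, and the background by promoter. The shares are therefore not in like units. It began 238 bases before the start in MXD4, 193 in MNT and 50 in MLX, of which the first 2 genes rose and MLX fell. Neither ATCGAT nor ATTGAT occurred in the windows of the 9 members, against 0.655% and 5.58% of all promoters, and CGCGTG did not occur either, against 9.72% of all promoters. A match is a description of the letters and not a site. The windows of the 3 genes with a match, and that of MXD3, the member that fell most, are shown from the first base of the window to the gene's first base in the count files' annotation, with CACGTG in capitals. MXD4 is chr4:2262110-2262359 (minus strand), MNT is chr17:2401105-2401310 (minus strand), MLX is chr17:42566850-42567071 (plus strand) and MXD3 is chr5:177312758-177313002 (minus strand).
MXD4: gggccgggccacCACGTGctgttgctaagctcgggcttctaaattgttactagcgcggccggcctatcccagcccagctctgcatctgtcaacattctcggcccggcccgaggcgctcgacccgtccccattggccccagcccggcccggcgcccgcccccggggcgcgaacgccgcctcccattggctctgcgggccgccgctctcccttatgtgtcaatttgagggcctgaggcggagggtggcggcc
MNT: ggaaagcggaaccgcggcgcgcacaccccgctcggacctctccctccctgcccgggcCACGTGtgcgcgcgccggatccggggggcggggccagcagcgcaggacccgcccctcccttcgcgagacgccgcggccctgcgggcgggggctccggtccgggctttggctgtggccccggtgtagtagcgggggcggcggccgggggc
MLX: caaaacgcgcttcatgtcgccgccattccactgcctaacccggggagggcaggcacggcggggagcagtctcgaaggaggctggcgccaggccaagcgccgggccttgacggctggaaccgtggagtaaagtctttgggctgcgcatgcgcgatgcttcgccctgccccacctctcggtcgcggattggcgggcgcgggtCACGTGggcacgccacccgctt
MXD3: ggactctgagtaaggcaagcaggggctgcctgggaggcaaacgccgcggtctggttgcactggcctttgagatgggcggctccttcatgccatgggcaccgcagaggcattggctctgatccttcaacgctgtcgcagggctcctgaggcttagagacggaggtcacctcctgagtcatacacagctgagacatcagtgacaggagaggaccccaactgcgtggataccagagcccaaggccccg

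To compare genes with each other, levels were expressed per length as FPKM, which divides CPM by the summed exon length in kilobases. This length covers all annotated exons of a gene, so the order of genes and the ratios between them depend on the annotation. In CPM, MYC (139.8) lay above MLX (139.0) in OC2-OE replicate 3. In control cells the order was MLX, MYC, MYCL, MXD4, MXI1, MAX, MXD1, MNT, MXD3 and MYCN. MLX was at 37.6 ± 1.16, MYC at 29.1 ± 0.786, MAX at 7.29 ± 0.415 and MXD3 at 4.03 ± 0.248 FPKM (SD, n = 3). Neighbours in this order overlapped between libraries for MYCL with MXD4 and for MNT with MXD3. In OC2-OE cells the order of the 10 genes was the same, with MLX at 32.9 ± 0.178, MYC at 29.7 ± 0.732, MAX at 6.58 ± 0.383 and MXD3 at 2.57 ± 0.0182 FPKM (SD, n = 3). MYCL (19.9 ± 0.388 FPKM) and MXD4 (19.4 ± 0.343 FPKM) again overlapped, while MNT (5.67 ± 0.237 FPKM) and MXD3 no longer did. The level of MXD3 is an underestimate, since 19.5% of its exonic bases are shared with RAB24. Its order against MNT in control cells is therefore not settled.

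The summed level of the 3 paralogs was 44.7, 44.6 and 42.9 FPKM in control and 49.4, 48.7 and 50.5 FPKM in OC2-OE libraries, higher in every OC2-OE library. The share of MYC in this sum was 66.1% ± 0.311 in control and 59.8% ± 0.687 in OC2-OE cells (SD, n = 3). The share of MYCL was 33.8% ± 0.232 and 40.1% ± 0.710 (SD, n = 3), so MYC remained the larger part in all 6 libraries. The summed level of the 5 antagonists was 39.6, 41.0 and 41.9 FPKM in control and 44.9, 43.6 and 44.0 FPKM in OC2-OE libraries. Within this sum MXD4 took 35.2% ± 1.604 in control and 43.9% ± 1.11 in OC2-OE cells (SD, n = 3), and MXI1 took 29.6% ± 2.18 and 23.5% ± 1.04 (SD, n = 3). MNT took 10.0% ± 0.541 and 12.8% ± 0.346, and MXD3 9.86% ± 0.402 and 5.81% ± 0.0927 (SD, n = 3). The ratio of antagonists to paralogs was 0.887, 0.919 and 0.978 in control and 0.907, 0.895 and 0.872 in OC2-OE libraries. This ratio overlapped between groups, although both sums hold members that passed the test. The paralogs stood at 6.06 ± 0.263 times the level of MAX in control and 7.55 ± 0.530 times in OC2-OE cells (SD, n = 3). The antagonists likewise stood at 5.62 ± 0.463 and 6.73 ± 0.460 times the level of MAX (SD, n = 3), and neither ratio overlapped between groups. These sums and ratios add up chosen members and were given no test. They concern transcripts, and protein levels were not analysed here.

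**Figure D3:**
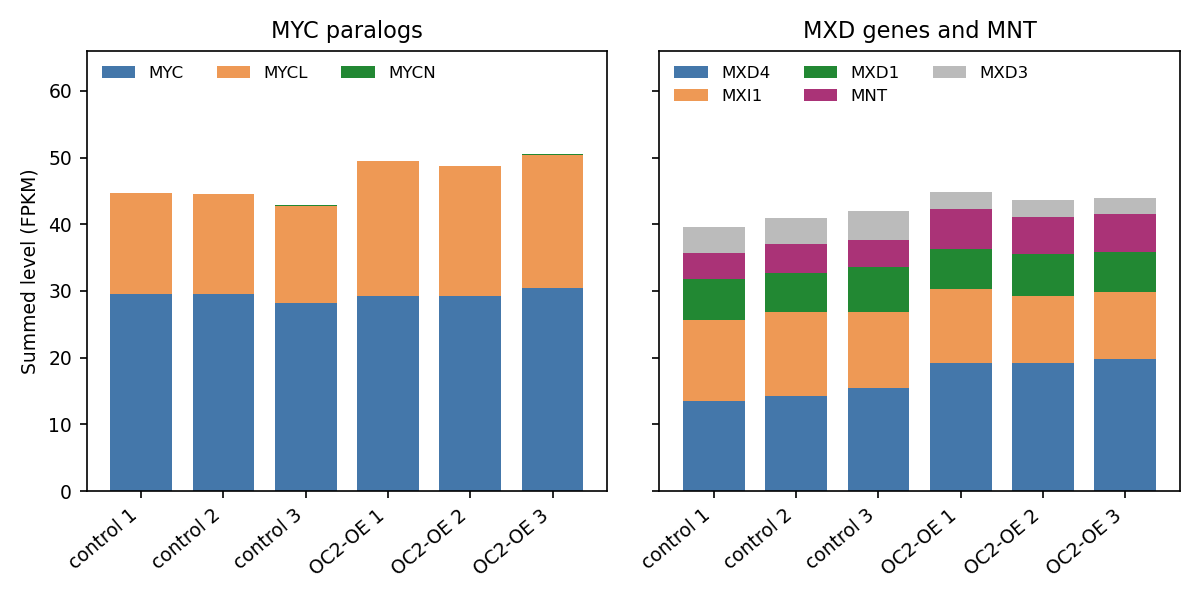
Summed level in FPKM of the MYC paralogs (left) and of the MXD genes with MNT (right) in each of the 6 libraries, each bar divided by gene. The paralog bars reach 42.9 to 44.7 FPKM in control and 48.7 to 50.5 FPKM in OC2-OE libraries, with MYCL as the part that differs.

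Of the 3 remaining partners of MAX or MLX, MLXIPL was higher and MGA lower in OC2-OE cells, and MLXIP did not pass. MGA, on chromosome 15 from 41621134 to 41773081, encodes the large MAX partner of a polycomb complex (PRC1.6). It had 102, 103 and 98.6 CPM in control and 80.5, 84.8 and 85.2 CPM in OC2-OE libraries, and fell by 0.28 on the log2 scale (standard error 0.038, adjusted p = 6.68e-11, edgeR). MLXIPL, which encodes ChREBP, a sensor of glucose metabolites known from liver, is on chromosome 7 from 73593194 to 73624543. It rested on 143 counts in control and 284 in OC2-OE libraries, and had 3.05, 3.29 and 1.91 CPM in control and 4.75, 4.85 and 5.98 CPM in OC2-OE libraries. The groups did not overlap, and the rise was 1.88-fold (log2 fold change 0.91, standard error 0.17, adjusted p = 9.42e-07, edgeR). MLXIP, which encodes MondoA, went from 170.3 ± 2.51 to 175 ± 6.17 CPM (SD, n = 3), or on the log2 scale a difference of 0.04 with a 95% interval from -0.02 to 0.09 (adjusted p = 0.278, edgeR). Of the 2 best-known targets of MondoA with MLX, both arrestin-like regulators of glucose uptake, TXNIP rose and ARRDC4 did not pass. TXNIP had 181, 169 and 172 CPM in control and 255, 248 and 259 CPM in OC2-OE libraries (log2 fold change 0.55, standard error 0.028, adjusted p = 2.94e-37, edgeR). ARRDC4 was at 13.6 ± 1.22 and 14.5 ± 0.775 CPM (SD, n = 3), with overlap (log2 fold change 0.09, adjusted p = 0.356, edgeR). Of 9 other subunits of the MGA complex, 3 rose (RNF2, RING1 and RYBP), 3 fell (TFDP1, L3MBTL2 and CBX3) and 3 did not pass, 66.7% called against 56.5% of all tested genes. Their median log2 fold change was -0.11, and -0.06 with library size only.

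Genes beside the MYC paralogs were read as a check of their neighbourhoods. PVT1, a long noncoding RNA gene downstream of MYC, lies on chromosome 8 from 127794526 to 128187101. It had 25.05, 27.6 and 27.5 CPM in control and 34.8, 36.5 and 37.4 CPM in OC2-OE libraries. It rose 1.36-fold (log2 fold change 0.44, standard error 0.060, adjusted p = 8.04e-11, edgeR), where MYC itself did not pass, and the difference between the 2 genes was not tested. CASC11, antisense to MYC, had 10 counts in control and 14 in OC2-OE libraries. TRIT1, a tRNA-modifying enzyme gene next to MYCL, fell by 0.20 on the log2 scale (adjusted p = 7.39e-06, edgeR) while MYCL rose. DDX1, an RNA helicase gene near MYCN, was at 163 ± 3.54 and 150.5 ± 4.08 CPM (SD, n = 3), or on the log2 scale a difference of -0.11 (adjusted p = 0.000731, edgeR) that kept its call in 4 of 15 other settings. MYCNOS had 1 count in each group and MYCNUT 1 in control and 0 in OC2-OE libraries.

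Cofactors of the network were described by lists. Of 11 SIN3 and NCOR corepressor genes, 7 fell and 2 rose, with a median log2 fold change of -0.21 against 0.01 over all tested genes. The share called was 81.8%, against 56.5% of all tested genes. HDAC2, a histone deacetylase of the SIN3 complex, fell from 185 ± 0.738 to 136 ± 2.03 CPM (SD, n = 3), or on the log2 scale a difference of -0.45. SIN3B, a scaffold that MXD proteins bind, rose from 24.5 ± 0.629 to 34.1 ± 1.66 CPM (SD, n = 3), or on the log2 scale a difference of 0.48. SAP30 had a log2 fold change of -0.44, and 2 of 15 other settings lost its call, with an adjusted p of up to 0.00313. On a list of 14 MYC coactivators, 6 genes fell, 2 rose and 6 did not pass, with a median of -0.11. The list also holds ZBTB17, which encodes MIZ1, a partner of MYC in repression (log2 fold change 0.18, not called). The share called on this list, 57.1%, was that of any tested gene (56.5%). With library size only, 5 of its genes fell and 3 rose, with a median of -0.06. Without OC2-OE replicate 1, 5 fell and 1 rose. TRRAP, the scaffold of histone acetyltransferase complexes that MYC recruits, fell from 151 ± 4.71 to 114 ± 4.03 CPM (SD, n = 3), and ACTL6A and RUVBL1 had log2 fold changes of -0.36 and -0.27.

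Of 19 genes that act on the stability of MYC proteins, 13 fell, 3 rose and 3 did not pass, with a median log2 fold change of -0.31. That is 84.2% called, against 56.5% of all tested genes. This list holds genes that protect the proteins and genes that degrade them. PLK1, AURKA and CIP2A, which protect MYC or MYCN protein, changed the most on this list, by log2 values of -2.75, -1.78 and -1.11. FBXW7, the ubiquitin ligase subunit that marks MYC for degradation, also fell, from 42.2 ± 2.96 to 26.8 ± 1.06 CPM (SD, n = 3). It falls outside the rule for named genes and was chosen after its values were seen. PLK1 and AURKA are mitotic kinases, and all 15 genes of a proliferation list fell in the same libraries, with a median log2 fold change of -1.53. TOP2A, MKI67 and CCNB2 led that list with log2 fold changes of -2.29, -2.28 and -2.28. The part of the lower proliferation genes in the changes of the network and its targets was not tested.

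Of the genes that MYC is known to activate, more fell than rose in each of 3 lists written from general knowledge. Of 25 ribosome biogenesis genes, 12 fell, 3 rose and 10 did not pass, with a median log2 fold change of -0.15. With library size only, 10 fell and 4 rose, with a median of -0.10. MRTO4, DKC1 and NPM1, all nucleolar factors, had log2 fold changes of -0.50, -0.45 and -0.40. NPM1, the most abundant of the 3, fell from 862 ± 25.4 to 655 ± 13.98 CPM (SD, n = 3). Of 25 metabolic genes, 16 fell, 5 rose and 4 did not pass, with a median of -0.22. HK2, the first enzyme of glycolysis, fell from 100.1 ± 3.37 to 43.4 ± 2.27 CPM (SD, n = 3), or on the log2 scale a difference of -1.21. In the same list SLC1A5, a glutamine transporter, rose from 312 ± 2.998 to 535 ± 13.5 CPM (SD, n = 3), or on the log2 scale a difference of 0.78. Of 21 genes of translation, chaperones and the cell cycle, 15 fell, 4 rose and 2 did not pass, with a median of -0.38. CDC25A, a cell cycle phosphatase, and HSPE1, a mitochondrial chaperone, had log2 fold changes of -1.23 and -0.62, and PRDX4, a peroxiredoxin, of 0.71. The share of genes called was 60.0%, 84.0% and 90.5% in these lists against 56.5% of all tested genes (28.7% lower and 27.8% higher). For ribosome biogenesis genes the share called thus lay near that of any gene. Of 8 genes that MYC represses together with MIZ1, 3 rose, 4 fell and 1 did not pass. That is 87.5% called, against 56.5% of all tested genes. Their median absolute log2 fold change was 1.27 against 0.38 over all tested genes. CDKN2B, an inhibitor of G1 cyclin kinases, rose from 4.27 ± 0.437 to 13.4 ± 0.958 CPM (SD, n = 3), or on the log2 scale a difference of 1.65. CEBPA, a differentiation factor, rose by 1.95 on the log2 scale from 44 counts in the control libraries. NDRG1 fell from 277 ± 3.27 to 69.0 ± 2.90 CPM (SD, n = 3), or on the log2 scale a difference of -2.01. These 8 genes had no common direction. Over the other settings 3 or 4 of them fell and 3 rose. Their median of -0.67 moved to -0.38 with a filter of at least 10 counts in every library.

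**Figure D4:**
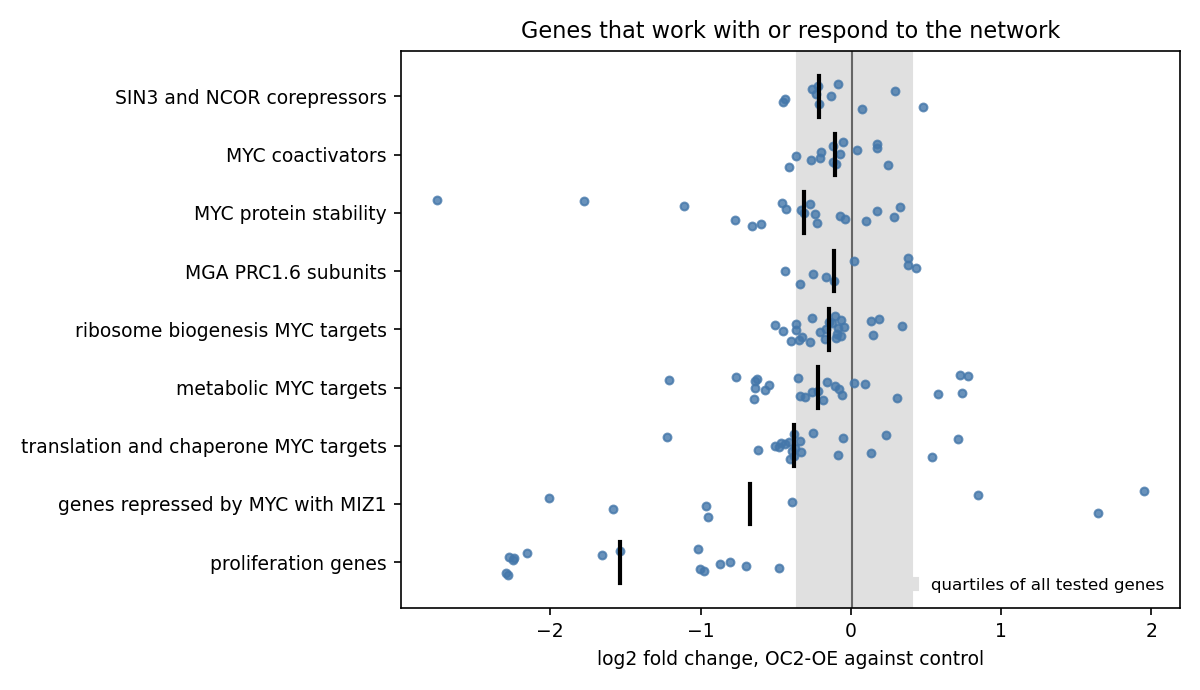
log2 fold change of OC2-OE against control for each tested gene of 9 lists (points, spread vertically for view), with the median of each list as a black bar. The grey band marks the quartiles of all tested genes and the thin line their median of 0.01, and all 15 proliferation genes lie below 0.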

How the data were processed

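RNA from 6 DMS53 cultures was sequenced as stranded poly(A) libraries, in 3 control and 3 OC2-OE replicates. Per the file headers, the deposited counts are raw numbers of read pairs, assigned with featureCounts version 1.6.0 by strand to the exons of each gene of GENCODE release 42, and per the labels reads were aligned with STAR version 2.7.9a to GRCh38. Pairs that matched several genes were not counted. The Length column that the authors deposited with the counts, the summed exon length of a gene in bases, was used for FPKM.

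Gene symbols were matched by Ensembl identifier without version for 62625 of 62696 genes. Counts were normalized by TMM, filtered with filterByExpr and tested with the quasi-likelihood test of edgeR version 4.0.16 in R version 4.3.3, with robust dispersions and no replicate term, on 17307 genes. Adjustment of p-values was by Benjamini and Hochberg, with the paper's threshold of 0.001. Standard errors were derived from the log2 fold change and its F statistic, and 95% intervals are 1.96 standard errors wide on each side. No spike-in is named in the sources used here, so levels are relative to each library.

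The members and gene lists were chosen with earlier results of these data known. Besides the members and ONECUT2, the genes named are those of the 3 shortest lists of partners, targets and neighbours, and on each other list the 3 with the largest absolute log2 fold change among those called, of which 1 is not reported here. Further genes were named after their values were seen where a sentence lists the genes of a group by call. FBXW7, ZBTB17 and the genes given for exons shared with another gene also fall outside this rule. Alternatives were DESeq2 size factors, library size only, upper-quartile factors, the Wald test of DESeq2 version 1.42.0, voom of limma version 3.58.1, no filter, a floor of 10 counts in every library, a fit omitting ONECUT2, a block for replicate number, omission of each library in turn, and other thresholds. FPKM sums were also computed as TPM, by library size and as CPM. Promoter sequences were from RefSeq.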

Additional observations from a re-analysis of the deposited data

How the results depend on the processing

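All 15 alternatives of scaling, test, filter and libraries kept 6 members called, 3 higher and 3 lower, among between 8385 and 9777 called genes. The replicate number as a block gave 9642 genes and 6 members, and since deviations of same-numbered libraries correlated at -0.00, 0.02 and 0.01, the numbers were not taken to pair the samples. A further requirement of a log2 fold change past 1 in size left 2999 genes and 0 of the members, where 6 members passed the adjusted p alone. An adjusted p under 0.05 gave 12354 genes and 7 members, with MAX added. The log2 fold change of MXD1 turned from -0.03 to 0.024 with library size only and 0.016 with upper-quartile factors, and ran from -0.070 to 0.022 with 1 library left out, turning without control replicate 3. The median of the 5 antagonists is the value of MXD1 and moved with it. With library size only, the log2 ratio of the summed levels rose to 0.22 for the paralogs and 0.16 for the antagonists, from 0.17 and 0.11, the shift of 0.05 that this scaling gave the median of all tested genes. The other list medians kept their sign, and with library size only those of the coactivators, the MGA complex and the ribosome biogenesis genes shrank from -0.11, -0.11 and -0.15 to -0.06, -0.06 and -0.10. Depth limited MYCN and the antisense genes, which had under 15 counts in each group.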

Other observations

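Genes of the metabolic list moved both ways. The glycolytic genes HK2, LDHA, PKM and ENO1 fell, with log2 fold changes of -1.21, -0.64, -0.62 and -0.35, while the amino acid transporters SLC1A5 and SLC7A5 rose by 0.78 and 0.73 on the log2 scale. Of 4 enzymes of 1-carbon metabolism, SHMT1, MTHFD1 and SHMT2 fell, with log2 fold changes of -0.64, -0.55 and -0.10, and MTHFD2 rose (0.10). The call of SHMT2 held in 13 and that of MTHFD2 in 8 of 15 other settings. Of 10 nucleotide synthesis genes, PRPS2, PAICS, PPAT, UMPS and CTPS1 fell, with log2 fold changes from -0.57 to -0.22, IMPDH1 and CAD rose (0.58 and 0.31, log2 fold change), and GART, NME1 and IMPDH2 did not pass. Of all tested genes, 56.5% were called, 28.7% lower and 27.8% higher. These genes were singled out after their values were seen.

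Some genes of the target lists were counted on only part of their exons. IMPDH2 had 79 counts in control and 140 in OC2-OE libraries, NOP2 752 and 760, EIF4A1 436 and 671, and PPAN 747 and 614. Of their exonic bases, 32.8%, 54.4%, 47.4% and 49.2% lie in exons of another gene on the same strand in the annotation used for counting, where a read pair is not assigned. Among the network members this share was 19.5% for MXD3, 3.73% for MXD1, 1.16% for MXD4 and 0 for the others.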
